A study of Mus musculus with 2 samples.

Results

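Adipogenic transcription factors were followed here through the adipocyte lineage of mouse iWAT, the inguinal depot of subcutaneous white fat. The 9 genes were listed by name: Pparg, Cebpa, Cebpb, Cebpd, Rxra, Ebf1, Ebf2, Klf15 and Zfp423. They are 9 of the 31053 genes counted, and each was present in both libraries. For each gene the unique molecular identifiers (UMIs, each marking 1 captured RNA molecule) were summed over the nuclei of a cell class and expressed per 1000000 UMIs of that class (CPM). The classes were interstitial progenitors (122 nuclei labelled WT and 395 labelled KO), preadipocytes (144 and 275) and adipocytes (422 and 894).

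The nuclei came from 2 single-nucleus RNA-Seq libraries, 1 for each genotype. Each pooled the iWAT of 3 male mice on a C57BL/6 background after 4 weeks of Western diet. The study's methods state that it was taken without the lymph node. Most mice of the study were about 10 to 12 weeks old. The labels name the genotypes Lexis WT and Lexis KO. Lexis is a long noncoding RNA. Per the study's methods, knockout mice (Lexis-AdKO) carried Lexis fl/fl alleles and Adipoq-Cre, which recombines in adipocytes, and controls (Lexis-AdWT) carried Lexis fl/fl without Cre. The interstitial progenitors and preadipocytes are not the cells in which the adiponectin promoter is known to drive Cre. Both libraries were deposited under file names that give the other genotype, and Lexis was not analysed here, so each library is called by its label and the labels could not be checked. If the file names were right, every ratio between the libraries would turn. The paper reports the genes Ucp1, Acsl1 and Ppargc1a as higher in its knockout, from expression shown by adipocyte subcluster. Over all adipocytes summed here, Ucp1 and Acsl1 stood lower in those labelled KO, Acsl1 short of the threshold used below. Ppargc1a was nearly equal. The measures differ, so this does not check the labels. Genotype, pool of mice and preparation cannot be told apart in this design. The intervals given are at 95% and cover counting error alone, and no value has a replicate.

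Adipogenesis runs as a relay of transcription factors. C/EBPβ and C/EBPδ act early after an adipogenic stimulus and help switch on Pparg and Cebpa, whose products then activate each other and the genes of lipid storage. PPARγ, the nuclear receptor that thiazolidinedione drugs bind, works on DNA as a heterodimer with RXRα, the product of Rxra. EBF1 and EBF2 are early B cell factors that also act in the fat lineage, EBF2 being known for its part in brown and beige fat selectivity. ZFP423 is a zinc finger protein known for marking committed preadipocytes and for holding back the thermogenic programme of white adipocytes. KLF15 is a Krüppel-like factor that rises during adipocyte differentiation and acts in glucose and amino acid metabolism.

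The members differ in gene structure, which matters for nuclear RNA because much of it is unspliced. Positions are those of RefSeq on GRCm38.p6 (mm10), and intronic lengths come from older GENCODE gene models. Cebpa (chr7:35119293-35121928) and Cebpb (chr2:167688915-167690432) had no intron, and Cebpd (chr16:15887286-15889545) had 1 intronic base. Klf15 (chr6:90461043-90491803) held 10136 intronic bases and Rxra (chr2:27676445-27763319) 81056. Pparg (chr6:115360879-115490404) held 127197, Ebf2 (chr14:67233292-67430952) 192134, Zfp423 (chr8:87661810-87962053) 292178 and Ebf1 (chr11:44618100-45008096) 381019. The members therefore spanned intronless to very long genes. Levels were compared within a gene between classes or libraries, and not between genes.

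RefSeq windows from 250 bases before to 50 bases after a transcription start were at hand for 7 of the 9 members, 12 windows in all. Cebpd and Ebf2 had none. Each window was searched on both strands for the letters that C/EBP factors are known to favour (TTGCNNAA), an EBF palindrome (TCCC and GGGA with any 2 bases between), the direct repeat bound by PPARγ and RXR (AGGTCA and AGGTCA with any 1 base between), a Krüppel-like factor box (CCACCC) and a TATA box (TATAAA). No pair of the printed matches overlapped. Printed are 2 windows of Pparg, at the most upstream (chr6:115360894-115361193) and the most downstream (chr6:115421816-115422115) of its starts that had a window. Those of Cebpa (chr7:35119043-35119342) and of Zfp423 (chr8:87959546-87959845, minus strand) are printed as well. The 2 windows with C/EBP matches were chosen for them, with the upstream Pparg window and that of Cebpa for comparison. The windows of Cebpb and Klf15, also higher in adipocytes, are not printed. All are printed 5′ to 3′ along the gene from GRCm38.p6, with matches in capitals.
Pparg upstream start: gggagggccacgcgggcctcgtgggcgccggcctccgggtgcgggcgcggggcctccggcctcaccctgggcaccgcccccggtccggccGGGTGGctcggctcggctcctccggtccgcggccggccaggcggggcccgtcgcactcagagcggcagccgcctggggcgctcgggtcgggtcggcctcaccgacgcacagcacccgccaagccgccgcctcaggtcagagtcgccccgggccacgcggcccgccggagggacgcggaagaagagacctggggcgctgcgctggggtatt
Pparg downstream start: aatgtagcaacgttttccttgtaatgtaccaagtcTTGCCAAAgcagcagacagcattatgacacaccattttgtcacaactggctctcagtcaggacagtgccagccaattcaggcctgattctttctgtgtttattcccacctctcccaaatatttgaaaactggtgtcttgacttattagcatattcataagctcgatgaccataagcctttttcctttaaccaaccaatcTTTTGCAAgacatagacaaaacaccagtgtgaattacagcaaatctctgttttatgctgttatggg
Cebpa: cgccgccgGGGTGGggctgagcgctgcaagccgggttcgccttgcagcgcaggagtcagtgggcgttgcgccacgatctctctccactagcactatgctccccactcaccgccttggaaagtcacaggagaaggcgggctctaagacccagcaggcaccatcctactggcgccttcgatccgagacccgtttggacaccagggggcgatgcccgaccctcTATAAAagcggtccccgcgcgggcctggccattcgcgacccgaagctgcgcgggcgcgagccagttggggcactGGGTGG
Zfp423: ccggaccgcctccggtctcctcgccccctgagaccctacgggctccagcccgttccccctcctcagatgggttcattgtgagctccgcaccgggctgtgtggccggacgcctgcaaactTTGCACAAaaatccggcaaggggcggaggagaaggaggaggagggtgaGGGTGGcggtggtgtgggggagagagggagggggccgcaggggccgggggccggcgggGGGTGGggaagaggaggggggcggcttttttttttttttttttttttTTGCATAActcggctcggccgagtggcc

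The downstream Pparg window held 2 C/EBP matches, 215 and 16 bases before the start, and its GC content was 40.3%, against 80.3% in the upstream window. The Zfp423 window held 2 as well, 1 of them 131 bases before the start and the other past it, beside 2 Krüppel-like factor boxes. Cebpa held a TATA box 30 bases before its start and 2 Krüppel-like factor boxes. Of the 12 member windows, 2 held the C/EBP letters, 7 the Krüppel-like factor box and 3 the TATA box. Among 32851 windows of the same length these shares were 10.8%, 31.5% and 13.6%, with a median GC content of 52.7%. The EBF palindrome (0.904% of all windows) and the direct repeat (0.0396%) were found in 0 of the 12 member windows, which says only that these letters are not in them.

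The classes carried markers of their names. Pi16 and Dpp4, which mark interstitial progenitors, reached 2066 and 1277 CPM in the interstitial progenitors labelled WT and 2257 and 1546 CPM in those labelled KO. Pdgfra, a receptor of stromal precursors in general, stood at 825 and 839 CPM in preadipocytes, beside 489 and 371 CPM in interstitial progenitors. Of 14 listed preadipocyte markers, 7 passed in the preadipocyte cluster labelled WT and 8 in that labelled KO. The 14 summed to 6535 and 7001 CPM in preadipocytes. They summed to 1166 and 1083 CPM in interstitial progenitors and to 5944 and 5149 CPM in regulatory type stromal nuclei. Plin1, a coat protein of lipid droplets, stood at 1706 and 1558 CPM in adipocytes. Adipoq, another adipocyte marker, stood at 352 and 333 CPM there, beside 101 and 310 CPM in T/NK nuclei. It thus did not set the adipocytes labelled KO apart, whose cluster passed 13 of 14 adipocyte markers without it. The preadipocyte class was less uniform: Fgf10 was at 43.1 CPM labelled WT and 781 CPM labelled KO, Icam1 at 74.8 and 25.3 CPM, and the myeloid marker F13a1, at 72.5 and 21.2 CPM, was among the 10 leading genes of the cluster labelled WT. Icam1 was no higher there than in myeloid nuclei, at 121 and 31.1 CPM. Different clusters held each class in the 2 libraries. No member was used to cluster or name nuclei, yet members move with the genes that were, so the differences between classes below are descriptions.

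The libraries differed in ways that touch each value. B cells made up 35.2% of nuclei labelled WT and 0.105% of those labelled KO, and T/NK nuclei 22.0% and 3.58%. The median UMIs per adipocyte nucleus were 3652 in the library labelled WT and 7853 in that labelled KO, 2126 and 3836 per preadipocyte, and 1306.5 and 2867 per interstitial progenitor. Immune transcripts were more common in the library labelled WT: the 8 B cell markers summed to 734, 707 and 550 CPM in its adipocytes, preadipocytes and interstitial progenitors, against 138, 42.4 and 40.5 CPM in the library labelled KO. The 12 T/NK markers ran from 184 to 272 CPM against 5.71 to 41.7 CPM, and the 12 myeloid markers from 622 to 818 CPM against 175 to 248 CPM. Labelled KO, 8 of 12 T/NK markers and 4 of 8 B cell markers were at 0 in preadipocytes and 6 and 4 in interstitial progenitors, with Cd3e, the defining T cell marker, at 0 in both classes. Ratios between libraries among adipocytes without such transcripts are given beside that comparison. The level of each member in T/NK-like nuclei, which should lack most of these factors, was taken as the level that free RNA can give. Where it was taken off a class, it was taken off as UMIs per nucleus and not as CPM.

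Pparg was higher at each step through the 3 classes in both libraries. In the library labelled WT it had 2 counts (11.1 CPM) in interstitial progenitors, 61 (138 CPM) in preadipocytes and 812 (408 CPM) in adipocytes. Its counts in the library labelled KO were 71 (55.3 CPM), 424 (346 CPM) and 15947 (1842 CPM). The interstitial value labelled WT lay below the 16.2 CPM of T/NK nuclei, and that labelled KO was beside 36.5 CPM there with overlapping intervals, so Pparg was not detectable above the level of T/NK nuclei in interstitial progenitors. The barcodes that the filters left out, which hold free RNA together with dropped nuclei, had 48.4 CPM of Pparg in the library labelled WT and 339 CPM (319 to 360) in that labelled KO, the latter overlapping the preadipocytes at 346 CPM (314 to 380). From interstitial progenitors to preadipocytes it was 12.4-fold higher (3.30 to 105) in the library labelled WT and 6.26-fold higher (4.86 to 8.16) in that labelled KO. From preadipocytes to adipocytes it was 2.95-fold higher (2.28 to 3.90) and 5.33-fold higher (4.84 to 5.88). Per nucleus, an adipocyte held 1.92 Pparg UMIs in the library labelled WT and 17.8 in that labelled KO.

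Rxra, the partner of PPARγ, was low in all 3 classes. It had 2, 4 and 43 counts in the interstitial progenitors, preadipocytes and adipocytes labelled WT (11.1, 9.06 and 21.6 CPM) and 29, 15 and 190 counts in those labelled KO (22.6, 12.2 and 22.0 CPM). In every class the interval overlapped that of T/NK nuclei, which had 10.5 and 13.7 CPM. Adipocytes against preadipocytes gave ratios of 2.39 (0.867 to 9.15), on under 50 counts, and 1.79 (1.06 to 3.27). The second was called higher under TMM scaling (log2 1.15, 0.39 to 2.02). It was also called higher with the T/NK level taken off as 0.0294 UMIs per nucleus (1.73, 0.65 to 3.07). In CPM that level, at 13.7, lay above the 12.2 of preadipocytes, so nothing would be left to compare. Whether Rxra was higher in adipocytes thus depended on the scaling and on free RNA.

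**Figure D1:**
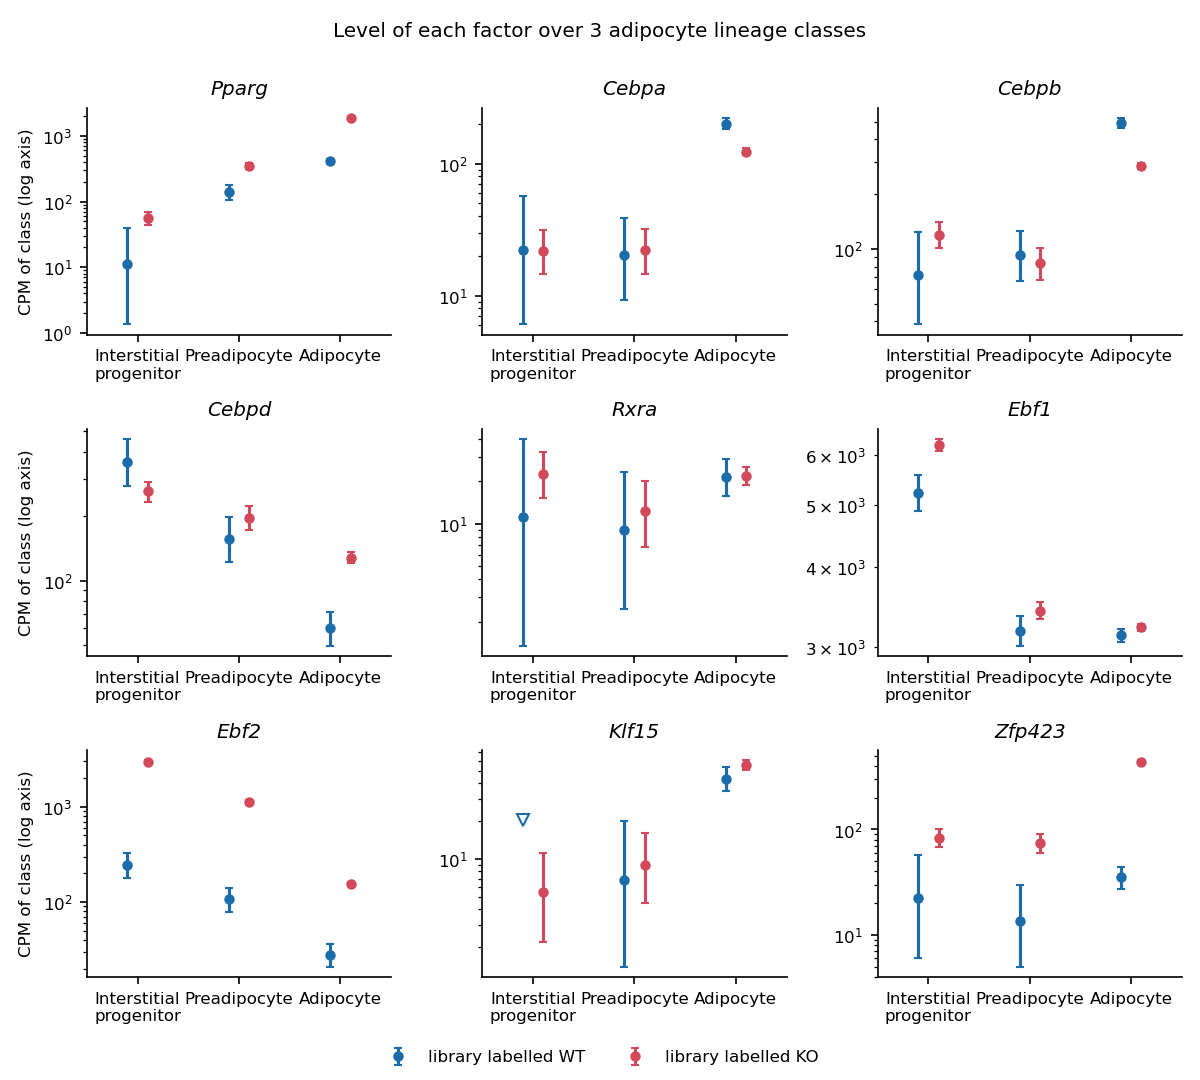
Levels of the 9 factors in CPM (log axis, 1 panel a gene) in interstitial progenitors, preadipocytes and adipocytes of the libraries labelled WT and KO, with 95% Poisson intervals for counting error. The open triangle is the upper limit of Klf15 in the interstitial progenitors labelled WT, which had 0 counts. Pparg climbs from 11.1 to 408 CPM and from 55.3 to 1842 CPM, while Ebf2 goes from 244 to 27.7 CPM and from 2978 to 155 CPM.

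The C/EBP genes parted ways. Cebpa, which sustains the mature adipocyte, was flat before the adipocyte class: 4 and 9 counts in the interstitial progenitors and preadipocytes labelled WT (22.2 and 20.4 CPM) and 28 and 27 counts in those labelled KO (21.8 and 22.0 CPM). T/NK nuclei had 22.9 and 45.6 CPM, so neither precursor class stood above free RNA. Adipocytes had 400 counts (201 CPM) and 1063 counts (123 CPM), which was 9.87-fold (5.14 to 21.7) and 5.58-fold (3.81 to 8.50) the preadipocyte level.

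Cebpb, the early-acting C/EBP, was highest in adipocytes and not in the precursors. It had 13 counts (72.2 CPM), 41 (92.9 CPM) and 979 (492 CPM) along the classes labelled WT, and 154 (120 CPM), 102 (83.2 CPM) and 2480 (287 CPM) along those labelled KO. T/NK nuclei had 42.0 and 50.1 CPM, which overlapped the interstitial progenitors labelled WT and the preadipocytes labelled KO. Adipocytes exceeded preadipocytes 5.30-fold (3.88 to 7.43) and 3.44-fold (2.82 to 4.24). The step before went in no common direction, with a ratio of preadipocytes to interstitial progenitors of 1.29 (0.676 to 2.62) in the library labelled WT and 0.694 (0.535 to 0.897) in that labelled KO.

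Cebpd had the opposite order. It had 65 counts (361 CPM) in the interstitial progenitors labelled WT, 69 (156 CPM) in preadipocytes and 119 (59.9 CPM) in adipocytes. The counts labelled KO were 336 (262 CPM), 242 (197 CPM) and 1108 (128 CPM). The order of the classes was thus the same in both libraries, and no neighbouring intervals overlapped. The ratios lay further from 1 in the library labelled WT, where preadipocytes stood at 0.433 (0.304 to 0.617) of interstitial progenitors and adipocytes at 0.383 (0.282 to 0.523) of preadipocytes, against 0.754 (0.637 to 0.893) and 0.648 (0.564 to 0.748) in that labelled KO. Cebpd overlaps Spidr in the annotation, which had 1762 UMIs in the kept nuclei beside 2837 of Cebpd, and the reads of overlapping genes can be shared.

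Ebf1 was read in nearly every nucleus of the lineage and differed little between preadipocytes and adipocytes. Its counts were 943, 1402 and 6216 in the library labelled WT (5237, 3177 and 3127 CPM) and 7976, 4191 and 27866 in that labelled KO (6212, 3419 and 3220 CPM). Interstitial progenitors stood highest in both libraries, with preadipocytes at 0.607 (0.558 to 0.660) and 0.550 (0.530 to 0.571) of them. Adipocytes against preadipocytes gave 0.984 (0.929 to 1.04) and 0.942 (0.912 to 0.973). T/NK nuclei had 946 and 1590 CPM of Ebf1. Those labelled KO also had Pax5, a B cell marker, among their 10 leading genes, and Ebf1 is a B lineage factor, so T/NK nuclei do not measure the free RNA of this gene.

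Ebf2 was lower at each step in both libraries. In the library labelled WT it had 44 counts (244 CPM) in interstitial progenitors, 47 (107 CPM) in preadipocytes and 55 (27.7 CPM) in adipocytes. The library labelled KO held 3824 counts (2978 CPM), 1370 (1118 CPM) and 1345 (155 CPM). Every one of these lay above the 5.73 and 9.11 CPM of T/NK nuclei. The barcodes left out by the filters had Ebf2 at 21.2 CPM (15.7 to 28.0) labelled WT, overlapping the adipocytes (20.8 to 36.0), and at 127 CPM (115 to 141) labelled KO, below the adipocytes (147 to 164). Preadipocytes stood at 0.436 (0.283 to 0.673) and 0.375 (0.353 to 0.399) of interstitial progenitors, and adipocytes at 0.260 (0.173 to 0.392) and 0.139 (0.129 to 0.150) of preadipocytes. Ebf2 and its paralogue Ebf1 therefore shared their highest class and differed in the step into adipocytes. Ebf2 overlaps Gm6878, 4930438E09Rik and Gm10860, which had 270, 1709 and 36 UMIs in the kept nuclei beside 8070 of Ebf2.

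Klf15 and Zfp423 were both highest in adipocytes, but for Klf15 in both libraries and Zfp423 in that labelled WT the interval overlapped that of the next class in order. Klf15 had 0, 3 and 86 counts in the library labelled WT, where 0 counts allow up to 16.7 CPM in interstitial progenitors, and 6.80 and 43.3 CPM were reached in preadipocytes and adipocytes. It had 7, 11 and 479 counts in that labelled KO (5.45, 8.97 and 55.3 CPM). T/NK nuclei had 0 counts of it in both libraries, which allow up to 2.86 CPM labelled WT and 13.7 CPM labelled KO. The barcodes left out labelled KO had 12.5 CPM (8.88 to 17.2). Klf15 in the 2 precursor classes labelled KO was thus not separable from free RNA. Adipocytes exceeded preadipocytes 6.36-fold (2.11 to 31.5) and 6.17-fold (3.42 to 12.4), ratios that are close to each other on few preadipocyte counts.

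Zfp423 did not peak in the class named for committed preadipocytes. It had 4 counts (22.2 CPM), 6 (13.6 CPM) and 70 (35.2 CPM) along the classes labelled WT. Those labelled KO had 107 (83.3 CPM), 91 (74.2 CPM) and 3789 (438 CPM). Preadipocytes labelled KO stood at 0.891 (0.666 to 1.19) of interstitial progenitors, and the same step labelled WT rested on under 50 counts. Adipocytes exceeded preadipocytes 2.59-fold (1.13 to 7.30) and 5.90-fold (4.79 to 7.34), and the first of these lost its call when nuclei under 1000 genes were left out (log2 0.63, −0.40 to 1.82). T/NK nuclei had 1.91 and 4.56 CPM.

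A ratio was called when it was at least 2 or at most 0.5, its interval left out 1, and the gene had at least 50 counts over both classes. Of the 8 members with enough counts for adipocytes against preadipocytes in the library labelled WT, 5 were called higher (Pparg, Cebpa, Cebpb, Klf15 and Zfp423) and 2 lower (Cebpd and Ebf2), where 14.3% and 10.8% of 6698 genes were called higher and lower. In the library labelled KO, 5 of 9 were called higher and 1 lower (Ebf2), against 16.8% and 17.5% of 11364 genes. The 5 called higher were the same genes. The median log2 ratio over the members was 1.47 and 1.78, and over all genes −0.00 and −0.12. For preadipocytes against interstitial progenitors, 1 of 5 members was called higher (Pparg) and 2 lower (Cebpd and Ebf2) in the library labelled WT, against 7.7% and 8.73% of 1935 genes, and 1 of 7 higher (Pparg) and 1 lower (Ebf2) in that labelled KO, against 6.91% and 8.11% of 7425 genes. Of the members that could be read at both steps, Pparg was called higher at each and Ebf2 lower at each, in both libraries. The call of Cebpd into adipocytes labelled WT ended when the libraries were aligned before clustering (log2 −0.87). At the step before, the calls of Cebpd and Ebf2 ended with at least 1000 genes per nucleus (−0.95 and −0.94). Each ended in only 1 of the 2 such runs (reclustered, or in kept classes), and not in the same one. With classes taken from the marker UMIs of each nucleus, Pparg at that step labelled WT had too few counts for a call, and its log2 ratio went from 3.64 to 1.75 (0.51 to 3.20).

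**Figure D2:**
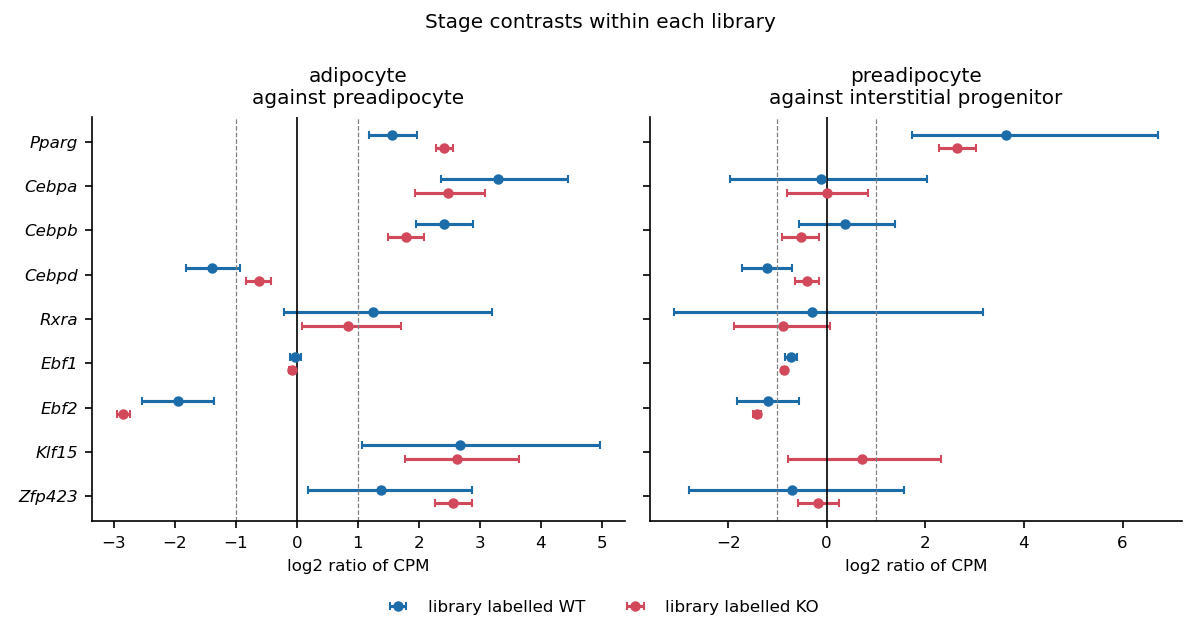
Log2 ratios of CPM between neighbouring classes for each factor in the libraries labelled WT and KO, with 95% conditional binomial intervals for counting error. The dashed lines mark a ratio of 2 and of 0.5. Pparg lies to the right of the upper line at both steps (log2 1.56 and 2.41 for adipocytes over preadipocytes), Ebf2 to the left of the lower line (−1.94 and −2.85), and Ebf1 on 0 for adipocytes over preadipocytes (−0.02 and −0.09).

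The steps differed in size between the libraries for some members, among those with enough counts in every class. The log2 step of Pparg into adipocytes was 0.85 larger (0.45 to 1.25) in the library labelled KO than in that labelled WT. That of Cebpb was smaller, with a difference of −0.62 (−1.16 to −0.09), and that of Cebpd less negative, with a difference of 0.76 (0.29 to 1.23). For Ebf2 the step was larger in the library labelled KO, with a difference of −0.90 (−1.47 to −0.33), and Ebf1 differed by −0.06 (−0.16 to 0.03). For the step from interstitial progenitors to preadipocytes, Cebpd differed by 0.80 (0.26 to 1.34) and Ebf1 by −0.14 (−0.27 to −0.01), while Cebpb (−0.89, −1.86 to 0.08) and Ebf2 (−0.22, −0.82 to 0.38) were not separable from equal steps.

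A class sum does not say how many nuclei carried a transcript. Each nucleus was therefore thinned to 1000 UMIs, so that depth was equal, and shallower nuclei were left out (26, 10 and 10 interstitial progenitors, preadipocytes and adipocytes labelled WT, and 16, 5 and 5 labelled KO). Pparg was then read in 1.04% of interstitial progenitors, 11.9% of preadipocytes and 32.8% of adipocytes labelled WT, and in 4.22%, 25.2% and 71.2% of those labelled KO. T/NK nuclei gave 2.32% and 4.40%, so the interstitial shares were background. Unthinned, 65.4% and 96.4% of adipocytes had a Pparg UMI.

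In the precursor classes, Ebf2 was the member whose thinned shares lay furthest apart between the libraries. It was read in 19.8%, 8.96% and 4.37% of the thinned interstitial progenitors, preadipocytes and adipocytes labelled WT, and in 86.8%, 61.1% and 15.5% of those labelled KO, against 0.842% and 0% of T/NK nuclei, where 0 of 91 allows up to 3.30%. Unthinned, the shares were 27.0%, 19.4% and 11.6%, and 95.4%, 84.4% and 48.4%. Ebf1 was read in 90.3% to 98.2% of thinned nuclei of the 3 classes in both libraries (95.1% to 99.4% unthinned), beside 33.5% and 30.8% of T/NK nuclei and 15.7% and 3.93% of myeloid nuclei thinned in the same way.

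Among the other members, thinned adipocytes had Cebpa in 19.7% and 13.3%, Cebpb in 35.9% and 24.6%, Zfp423 in 3.64% and 33.0% and Klf15 in 4.13% and 6.41% of nuclei in the libraries labelled WT and KO. Unthinned these were 51.7% and 59.4%, 72.7% and 80.3%, 14.5% and 82.2%, and 16.8% and 35.1%. T/NK nuclei thinned in the same way had Cebpa in 2.32% and 4.40%, Cebpb in 4.00% and 4.40%, Zfp423 in 0.421% and 1.10%, and Klf15 in 0% of nuclei. Cebpd shares were lower along the classes, from 31.2% to 11.9% and 6.31%, and from 24.8% to 18.9% and 12.9% (unthinned from 35.2% to 25% and 20.9%, and from 51.1% to 50.9% and 52.8%), beside 1.47% and 2.20% of T/NK nuclei. At 500 UMIs per nucleus the first step labelled KO went the other way, with 9.87% of interstitial progenitors and 12% of preadipocytes. Intervals of adipocytes and preadipocytes lay apart with adipocytes higher for 3 members in the library labelled WT (Pparg, Cebpa and Cebpb) and for 5 in that labelled KO (with Klf15 and Zfp423), and with adipocytes lower for 0 and 1 (Ebf2). These counts have no share of all genes beside them and are descriptions of the members alone.

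**Figure D3:**
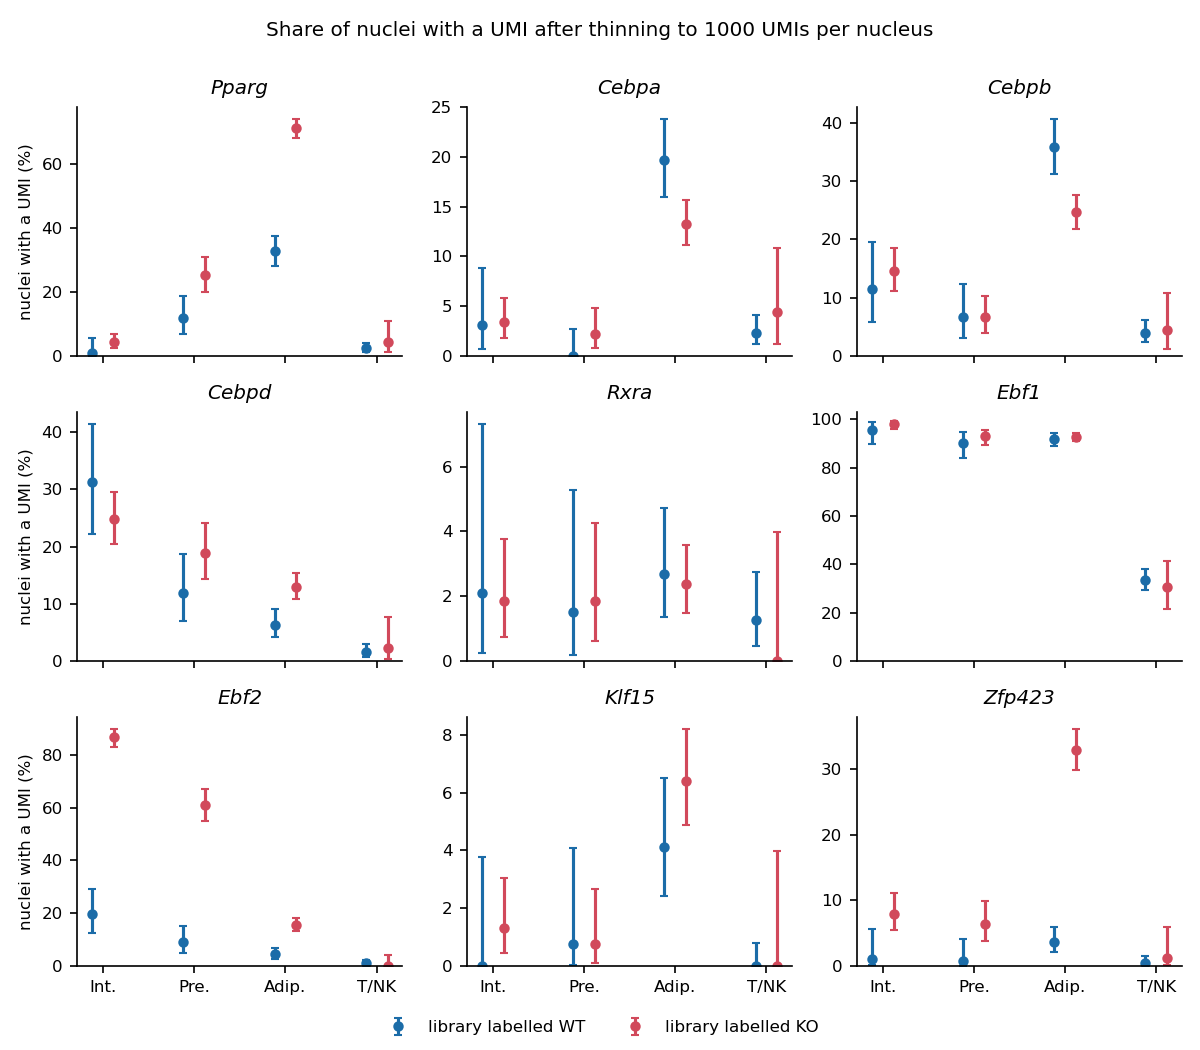
Percent of nuclei with a UMI of each factor after thinning each nucleus to 1000 UMIs, in interstitial progenitors, preadipocytes, adipocytes and T/NK nuclei of the libraries labelled WT and KO, with 95% Clopper-Pearson intervals. Pparg climbs to 32.8% and 71.2% of adipocytes, Ebf2 starts at 19.8% and 86.8% of interstitial progenitors, and Ebf1 stays above 90% in all 3 classes.

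Outside the lineage, Pparg was not confined to adipocytes. It stood at 1842 CPM in adipocytes labelled KO, 1619 CPM in mural nuclei (43 nuclei) and 1473 CPM in endothelial nuclei (122 nuclei), where neighbouring intervals overlapped. Myeloid nuclei labelled KO had 281 CPM (261 to 302). That lay above T/NK nuclei, at 36.5 CPM (15.7 to 71.8). It lay below the barcodes left out of the same library, at 339 CPM (319 to 360). Those barcodes hold dropped nuclei as well as free RNA, and the part of free RNA in the myeloid level was not tested. In the library labelled WT endothelial nuclei came second with 228 CPM (161 to 315), below adipocytes and overlapping preadipocytes. Cebpa, by contrast, had its highest level in adipocytes in both libraries with no overlap to the next class (endothelial, 43.2 and 49.0 CPM). The barcodes left out of the library labelled KO nevertheless had Cebpa at 111 CPM (99.1 to 123), which overlapped its adipocytes (116 to 130).

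Cebpb was second highest in regulatory type stromal nuclei labelled WT (213 CPM) and in myocytes labelled KO (201 CPM), with myeloid nuclei at 184 and 194 CPM. Cebpd was highest in regulatory type stromal nuclei in both libraries (375 and 351 CPM), which overlapped interstitial progenitors in the library labelled WT. Rxra was highest in myeloid nuclei (31.9 and 30.0 CPM), and its interval overlapped that of adipocytes in both libraries. Cebpd in myeloid nuclei was at 102 CPM labelled WT and 40.8 CPM labelled KO, the latter overlapping the 36.5 CPM of T/NK nuclei. The barcodes left out of the library labelled KO had Cebpb at 194 CPM (179 to 211), which overlaps its myeloid nuclei and myocytes.

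Ebf1 reached 4437 CPM in B cells labelled WT, between interstitial progenitors and preadipocytes. In mural nuclei labelled KO it reached 5868 CPM, with an interval that overlapped that of interstitial progenitors, and it was near its floor in myocytes (3.72 CPM). Ebf2 was likewise second highest in mural nuclei labelled KO (1190 CPM), while B cells labelled WT had 5.99 CPM of it. Klf15 came second in myocytes labelled KO (26.0 CPM), and Zfp423 in endothelial nuclei labelled KO (192 CPM). Only 10 mural nuclei and 0 myocytes were found in the library labelled WT, and only 3 B cells in that labelled KO, so these classes were not compared between libraries.

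**Figure D4:**
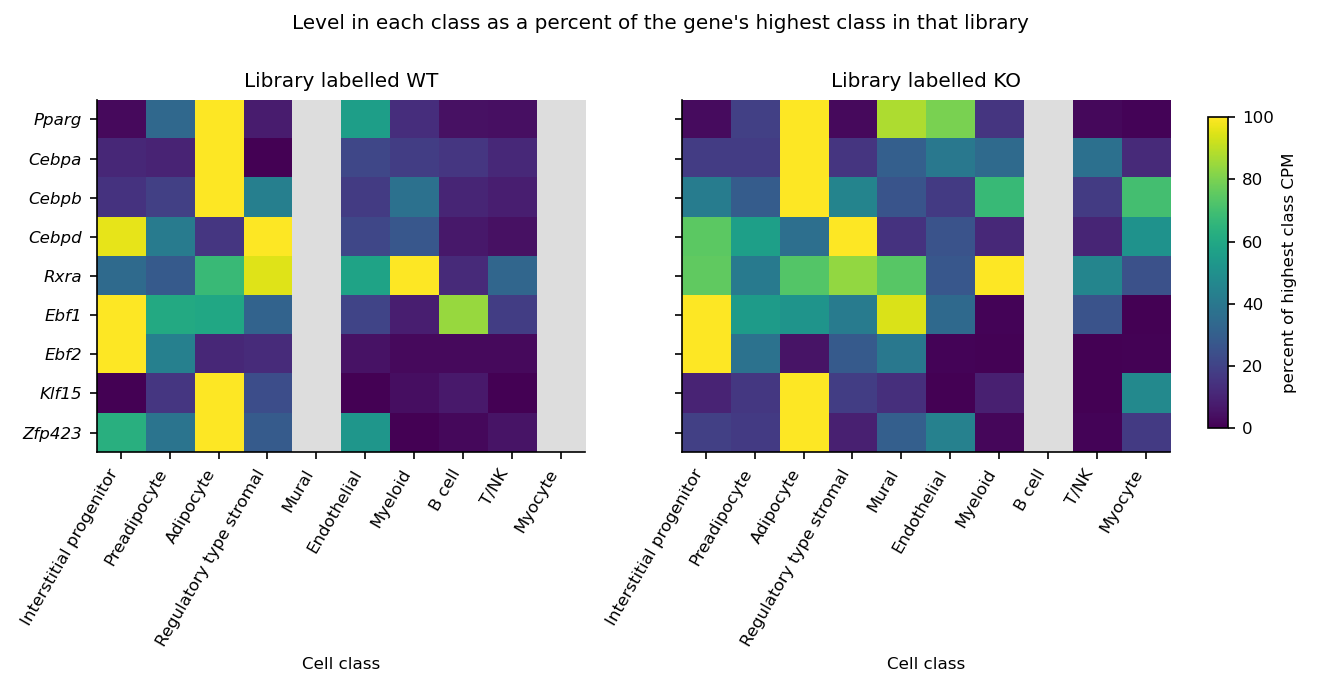
Level of each factor in every class with at least 20 nuclei, as a percent of its highest class in the same library (colour scale), for the libraries labelled WT and KO. Grey cells are classes with under 20 nuclei. Cebpa, Klf15 and Zfp423 peak in adipocytes (with intervals that overlap the next class for Klf15 in both libraries and Zfp423 labelled WT), Ebf1 and Ebf2 in interstitial progenitors, Cebpd in regulatory type stromal nuclei and Rxra in myeloid nuclei. Intervals also overlap the next class for Ebf1 labelled KO, Cebpd labelled WT and Rxra in both libraries.

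Over the 17 combinations of class and library with at least 20 nuclei, the 3 genes of 10980 whose log2(CPM + 10) ran most alike were found for each member by Pearson's r, as a description. The points share libraries and depth, and no p is given. Pparg ran most like Snrk (r = 0.91), Acer2 (0.90) and Gm45345 (0.90), Cebpa like Gm26772 (0.93), Mrps6 (0.92) and Plin1 (0.92), and Zfp423 like Ptprg (0.92), Gm3848 (0.91) and Zfp532 (0.91). Klf15 ran most like Optn (0.91), Ddo (0.90) and 9330159F19Rik (0.90), and Cebpb like Klf15 (0.80), Hk2 (0.78) and Snrnp35 (0.77). Each member that was highest in adipocytes was thus paired with different leading genes. Cebpd ran most like Trip10 (0.92), Jun (0.88) and Slc16a9 (0.87), Ebf1 like Slc24a5 (0.85), Sfxn1 (0.83) and Arfgap1 (0.79), and Ebf2 like Arhgap42 (0.96), Ror2 (0.96) and Gm6878 (0.95), the last of which overlaps it. Rxra ran most like Sulf2 (0.85), Olfm1 (0.81) and Igf1 (0.79). Between members, r was 0.80 for Cebpb and Klf15, 0.70 for Pparg and Zfp423, 0.58 for Pparg and Cebpa, and −0.45 for Cebpa and Cebpd.

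The libraries were also set against each other within each class, a comparison that cannot tell genotype from pool and preparation. In adipocytes, 4 of 9 members were called higher in the library labelled KO and 0 lower, where 25.3% and 17.7% of 11390 genes were called higher and lower. Zfp423 was 12.4-fold higher (9.82 to 16.0), Ebf2 5.62-fold (4.29 to 7.50), Pparg 4.51-fold (4.2 to 4.85) and Cebpd 2.14-fold (1.77 to 2.61). Cebpa and Cebpb stood at 0.610 (0.544 to 0.686) and 0.582 (0.540 to 0.627) of the level labelled WT, short of the threshold, and Rxra (1.01, 0.726 to 1.45), Ebf1 (1.03, 1.00 to 1.06) and Klf15 (1.28, 1.02 to 1.63) were near 1. The members with long introns were mostly those with the larger ratios, and the intronless Cebpa and Cebpb had the lowest. Cebpd, with 1 intronic base, and Ebf1, with the longest introns of the members, departed from that order. Rxra, with 81056 intronic bases, also stood below Klf15, with 10136, though their intervals overlapped.

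Apart from Cebpd, Ebf1 and Rxra, that order follows all genes. In adipocytes the median log2 ratio was −0.84 for genes with no intron and −0.93 for those with up to 3000 intronic bases, and it was 1.39 for genes with over 100000. The same ran from −0.64 to 1.53 in preadipocytes and from −0.80 to 1.55 in interstitial progenitors. Each ratio was therefore also taken less the trend of all genes over intronic length.

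Less the trend, 4 members in adipocytes were called higher and 1 lower, against 18.2% and 12.4% of 10666 genes. Cebpd had a log2 ratio of 1.93, Zfp423 of 1.80, Pparg of 1.13 and Ebf2 of 1.05, while Ebf1, which was nearly equal between the libraries as counted, came to −2.06. Cebpa and Cebpb came to 0.12 and 0.05, Klf15 to 0.74 and Rxra to −0.65. Under both readings Pparg, Cebpd, Ebf2 and Zfp423 were called higher in the adipocytes labelled KO. The readings parted on Ebf1, which has the longest introns of the members and lies at the far end of the trend.

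A minimum of 1000 genes left these ratios close to their values, while leaving out nuclei with immune transcripts moved them. Among adipocytes with at least 1000 genes (318 labelled WT and 873 labelled KO), the log2 ratios as counted were 2.18 for Pparg, 3.58 for Zfp423, 2.51 for Ebf2 and 1.12 for Cebpd. Among adipocytes without a UMI of any myeloid, B cell or T/NK marker (50 and 201), Pparg stood at 1.31 (1.02 to 1.60), Zfp423 at 3.03 (2.04 to 4.24) and Ebf2 at 3.48 (1.92 to 5.76). There Cebpd, at 0.76 (−0.12 to 1.79), was no longer called, and Cebpb, at −1.21 (−1.50 to −0.90), was called lower. These nuclei were few of the 422 and 894 adipocytes. A nucleus with fewer UMIs more easily lacks a marker, and the part of depth in these shifts was not tested. Scaling without mitochondrial genes and Malat1 also ended the call of Cebpd (0.85).

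In preadipocytes, 3 of 6 members were called higher and 0 lower (29.2% and 8.75% of 5783 genes): Ebf2 was 10.5-fold higher (7.85 to 14.4), Zfp423 5.46-fold (2.41 to 15.3) and Pparg 2.5-fold (1.91 to 3.33). Less the trend, only Ebf2 was called higher, with a log2 ratio of 1.82, and Ebf1 lower, with −2.25 (15.1% and 11.1% of 5626 genes), while Pparg came to 0.22 and Zfp423 to 0.40. In interstitial progenitors, 3 of 6 were called higher and 0 lower (27.9% and 9.35% of 5356 genes): Ebf2 was 12.2-fold higher (9.06 to 16.8), Pparg 4.98-fold (1.33 to 41.9) on 2 counts labelled WT, and Zfp423 3.75-fold (1.42 to 14.0) on 4. The 14 adipocyte markers were also higher in the precursors labelled KO, at 2394 against 1643 CPM in preadipocytes and 2280 against 850 CPM in interstitial progenitors, and their part in these ratios was not tested. The Pparg ratio sets side by side levels that were not separable from free RNA in either library. Less the trend, Ebf2 (log2 2.00) and Cebpb (1.52) were called higher and Ebf1 (−2.10) lower (11.9% and 9.8% of 5226 genes), and Zfp423 came to −0.15. Ebf2 was the only member called higher in the library labelled KO in all 3 classes under both readings. Its level in the barcodes left out also differed between the libraries, at 21.2 CPM labelled WT and 127 CPM labelled KO, beside 27.7 and 155 CPM in adipocytes, and those levels were not taken off. With the level of T/NK nuclei taken off as UMIs per nucleus (0.00780 labelled WT and 0.0196 labelled KO), the log2 ratio of Ebf2 in adipocytes was 2.55 (2.15 to 2.98).

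**Figure D5:**
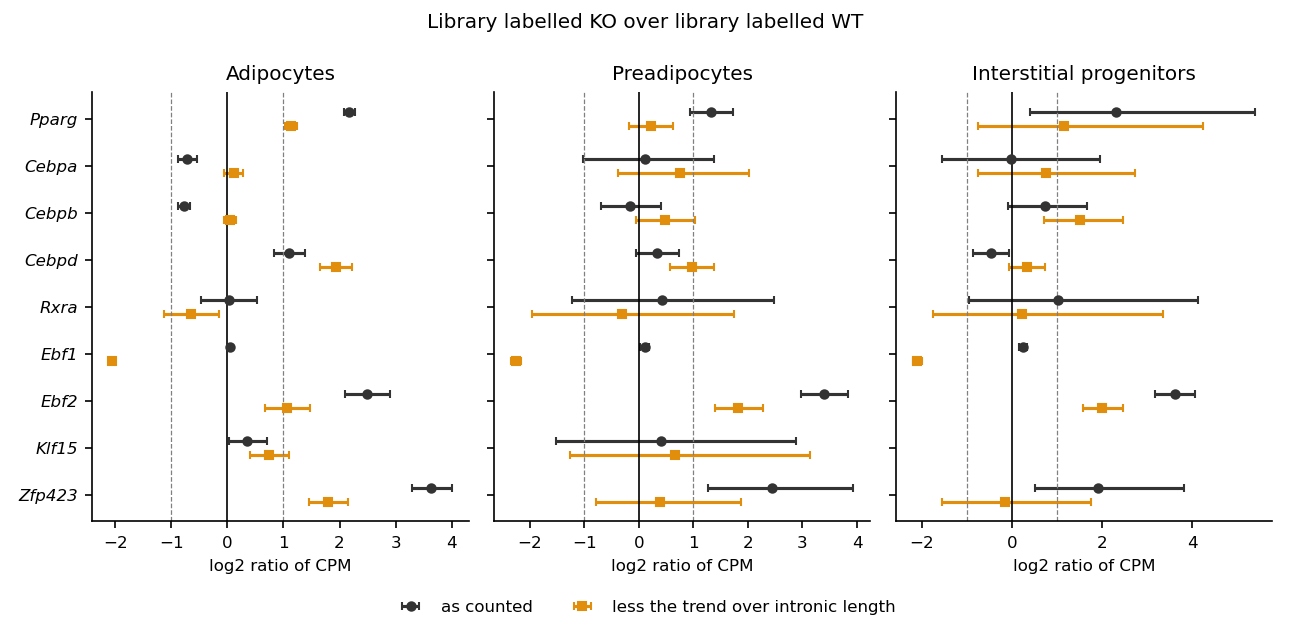
Log2 ratio of CPM of the library labelled KO over the library labelled WT for each factor in adipocytes, preadipocytes and interstitial progenitors, as counted and less the trend of all genes over intronic length, with 95% conditional binomial intervals for counting error. Klf15 is not drawn in interstitial progenitors, where the library labelled WT had 0 counts. In adipocytes Pparg moves from 2.17 to 1.13 and Ebf1 from 0.04 to −2.06 when the trend is taken off, and Cebpa and Cebpb move from −0.71 and −0.78 to 0.12 and 0.05.

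The wider network of adipogenesis was read from a list of 44 other regulators and one of 20 genes that PPARγ is known to activate. From preadipocytes to adipocytes, 6 of 33 regulators with enough counts were called higher and 5 lower in the library labelled WT, and 10 of 38 higher and 8 lower in that labelled KO, with median log2 ratios of 0.03 and 0.16. These are 18.2% and 15.2% of regulators beside 14.3% and 10.8% of all genes labelled WT, and 26.3% and 21.1% beside 16.8% and 17.5% labelled KO. Those called higher in both were Prdm16, a coregulator of the thermogenic programme (12.4-fold, 2.14 to 499.6, on 1 preadipocyte count labelled WT, and 7.97-fold), Srebf1, a regulator of lipid synthesis (4.17-fold and 4.90-fold), Stat5a (2.94-fold and 2.90-fold) and Ppargc1b, a coactivator of mitochondrial genes (2.74-fold and 8.41-fold). Those called lower in both were Klf4 (0.168 and 0.147), Nr2f2 (0.251 and 0.250), Prrx1, a mesenchymal homeobox factor (0.290 and 0.132), and Klf9 (0.387 and 0.384).

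The PPARγ targets were mostly called higher. From preadipocytes to adipocytes 16 of 19 were called higher and 0 lower in the library labelled WT and 19 of 20 higher and 0 lower in that labelled KO, with median log2 ratios of 2.73 and 3.20, where 14.3% and 10.8%, and 16.8% and 17.5%, of all genes were called higher and lower. Of these, Plin1, Cidec, Acsl1, Lipe, Pnpla2 and Dgat2 were among the markers that named the adipocytes in both libraries, and Adipoq in that labelled WT. Their direction was there given by the choice of class. Of those that were not, Aqp7, the glycerol channel, was 11.5-fold (3.85 to 56.2, on 3 preadipocyte counts) and 20.8-fold (8.88 to 64.3, on 5) higher and Fabp4, the fatty acid carrier, 3.09-fold and 2.10-fold.

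At the step before, 0 of 13 regulators were called higher and 4 lower in the library labelled WT, and 1 of 29 higher and 5 lower in that labelled KO, where all genes gave 7.7% and 8.73%, and 6.91% and 8.11%. Klf2 (0.168 and 0.112), Klf4 (0.264 and 0.223) and Klf3 (0.447 and 0.346), all Krüppel-like factors, were lower in preadipocytes in both. Of the targets, 5 of 7 were called higher and 0 lower labelled WT, and 2 of 17 higher and 1 lower labelled KO, against the same shares of all genes. Lpl, itself a marker that named the preadipocytes labelled WT, and Angptl4 (3.04-fold and 2.53-fold), which inhibits lipoprotein lipase, were called higher in both.

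Between the libraries, the targets went in both directions. In adipocytes 3 of 20 targets were called higher in the library labelled KO (Cd36, Cidec and Cfd) and 4 lower (Fabp4, Lpl, Angptl4 and Ucp1), with a median log2 ratio of −0.10 beside −0.05 over all genes. The paper reports Ucp1, Acsl1 and Ppargc1a as higher in its knockout, from expression shown by adipocyte subcluster. Here all adipocytes were summed. Acsl1 stood at 5421 CPM in adipocytes labelled WT and 3597 CPM in those labelled KO, which was not called, and Ppargc1a at 40.2 and 40.7 CPM. Ucp1 had 49 counts (24.6 CPM) in the adipocytes labelled WT. Under the file names, which give the other genotype, each ratio between libraries would turn. In preadipocytes 2 of 16 were called higher and 5 lower (29.2% and 8.75% of all genes), and in interstitial progenitors 4 of 14 higher and 1 lower (27.9% and 9.35%). Of the other regulators, 10 of 38 were called higher and 6 lower in adipocytes, 26.3% and 15.8% beside 25.3% and 17.7% of all genes, which is near the background. Those with the largest ratios were Zfp521, a relative of Zfp423 that opposes EBF factors (14.8-fold, 5.69 to 54.6, on 4 counts labelled WT), Foxo1 (7.94-fold, 6.69 to 9.49), Ppard (6.98-fold, 4.19 to 12.6) and Ppara (6.34-fold, 4.29 to 9.78), and Klf2 stood at 0.151 (0.108 to 0.211). Less the intronic trend these were 4.25, 5.12, 4.86, 4.42 and 0.283. In preadipocytes 6 of 25 regulators were called higher and 4 lower (24.0% and 16.0%), and in interstitial progenitors 8 of 28 and 4 (28.6% and 14.3%), beside the same shares of all genes.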

How the data were processed

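Single-nucleus RNA-Seq (10x Genomics 3′ v3.1) was measured in 2 libraries, 1 per genotype. The authors counted UMIs with Cell Ranger, whose version the file headers give as 6.1.1, and deposited raw counts for every gene in each barcode. The submitters' processing notes also name Seurat 4 and mm10. Whether intronic reads were counted and whether free RNA was removed is not given in the sources used here. The libraries held 9376351 and 19655049 UMIs in 5000 barcodes each (labelled WT and labelled KO), and 10 barcodes were shared. Nuclei with at least 500 genes and at most 5% mitochondrial UMIs were kept (3649 and 2944). Scrublet in scanpy 1.11.5 marked 92 doublets in the library labelled KO and 0 in that labelled WT, where the 4% with the highest scores (146) were removed. This left 3503 and 2852 nuclei.

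Counts were clustered unaligned in Seurat 5.3.0 (R 4.3.3; 10000 counts per nucleus, 2000 variable genes without the members, 20 components, resolution 0.5), and stromal precursors were clustered again. A cluster was named in the library that held most of it, from at least 3 markers with a UMI in 5% of nuclei and 2-fold the other clusters, 3 markers ahead of any other class. In the stages reported the classes are adipocyte-like, preadipocyte-like and interstitial progenitor-like nuclei. The members and all lists were chosen with earlier results of these data known.

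The deposited counts were summed per class and library and scaled to CPM. With 1 library per genotype there was nothing to test and p-values were not computed. Intervals at 95% are exact Poisson (CPM), conditional binomial (ratios) and Clopper-Pearson (shares), and cover counting error only. A count of 0 allows up to 3 counts. All genes with at least 50 counts, mitochondrial genes left out, gave the background. The trend over intronic length was a lowess fit (fraction 0.3, statsmodels 0.14.6) over all genes, with intron lengths from GENCODE vM1 and no coordinates taken from it. All 9 members were named, with the regulators called the same way in both libraries (up to 10 per step) and the 5 largest called between libraries in adipocytes. Alternatives were TMM (edgeR 4.0.16), another total, doublets left in, 1000 genes, classes from marker UMIs, resolution 1.0, members among the features, alignment, no minimum count, free RNA taken off, thinning to 500 UMIs and intronic length. The calling step was tested on simulated data.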

Additional observations from a re-analysis of the deposited data

How the results depend on the processing

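With 1 library per genotype, the spread between mice and between preparations is not measured. No paired analysis was possible because each genotype has 1 library and the labels give no replicate numbers. Of 28 called member ratios, 301 alternative values were had and 300 kept their direction. The other was Zfp423 in interstitial progenitors labelled KO over labelled WT, whose log2 ratio of 1.91 came to −0.15 less the intronic trend. The causes were not tested. Alternatives on nuclei with at least 1000 genes (classes kept) and on nuclei without an immune marker UMI were chosen after seeing the data.

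TMM moved the log2 ratios of all genes by 0.19 and 0.31 for adipocytes over preadipocytes (labelled WT, labelled KO), by 0.15 for preadipocytes over interstitial progenitors labelled WT, and by 0.29 and 0.18 for KO over WT in adipocytes and interstitial progenitors. The percent of calls that were higher went from 57.0 to 67.6, from 49.0 to 64.2, from 46.9 to 57.6 and, for adipocytes between libraries, from 58.9 to 76.1. Scaling without mitochondrial genes and Malat1 moved the library ratios by −0.25, −0.28 and −0.27 in adipocytes, preadipocytes and interstitial progenitors, and the percent of higher calls to 44.6, from 76.9 to 59.0 and from 74.9 to 58.7. Ebf1 in adipocytes over preadipocytes changed sign between scalings.

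Member counts moved as follows. For KO over WT in adipocytes, members called lower went from 0 to 1 less the intronic trend, without immune marker UMIs and without mitochondrial genes and Malat1. The last of these took the lower calls of all genes there from 2011 to 2981. In preadipocytes the trend took the higher calls to 1 and the lower to 1, and in interstitial progenitors the lower to 1. With at least 1000 genes, reclustered or in kept classes, members higher in interstitial progenitors labelled KO went to 1 and members lower in preadipocytes labelled WT to 1. Alignment took members lower in adipocytes labelled WT to 1. TMM and free RNA taken off raised members higher in adipocytes labelled KO from 5 to 6, where TMM took the higher calls of all genes from 1908 to 2503. Marker UMI classes took members higher in preadipocytes labelled WT to 0. At 500 UMIs, the shares lower in adipocytes came to 1 and 2 members. Apart from the scalings and the intronic trend, these counts have no share of all genes under the same alternative beside them.

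For the other regulators, adipocytes over preadipocytes gave in the library labelled WT 3 higher with marker UMI classes, 12 higher with free RNA taken off and 8 lower with no minimum count, and in that labelled KO 17 higher with free RNA taken off and 4 lower without immune marker UMIs. Preadipocytes over interstitial progenitors labelled WT gave 2 higher under TMM and without mitochondrial genes and Malat1, 1 higher with marker UMI classes, doublets left in, free RNA taken off or 1000 genes in kept classes, 4 higher with no minimum, 2 lower with 1000 genes, alignment or free RNA taken off and 1 lower with 1000 genes in kept classes. Labelled KO, they gave 0 higher with marker UMI classes and without immune marker UMIs, 3 higher with free RNA taken off and with no minimum, and 8 lower with marker UMI classes. KO over WT gave 2 lower in adipocytes under TMM and 6 higher less the trend, 1 lower in preadipocytes with marker UMI classes and 9 with no minimum, and in interstitial progenitors 2 lower under TMM, with free RNA taken off or 1000 genes in kept classes, 0 lower with marker UMI classes, and 5 higher and 0 lower with 1000 genes. Members among the features left 0 preadipocytes labelled WT, 1000 genes left 4 labelled KO, and nuclei without immune marker UMIs 16 preadipocytes and 19 interstitial progenitors labelled WT, under the 20 needed, so those values were not had. The regulator counts of this paragraph are given without the share of all genes under the same alternative, so they are not set against a background.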

Other observations

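The barcodes that the filters left out also held the factors. In the library labelled WT 1351 such barcodes held Pparg at 48.4 CPM (39.9 to 58.3), Cebpb at 138 CPM (124 to 154), Ebf1 at 1422 CPM (1374 to 1471) and Ebf2 at 21.2 CPM (15.7 to 28.0). In the library labelled KO 2056 such barcodes, 1448 of them with under 500 genes, held Pparg at 339 CPM (319 to 360), Cebpb at 194 CPM (179 to 211), Ebf1 at 662 CPM (634 to 692) and Ebf2 at 127 CPM (115 to 141). Cebpa stood at 111 CPM (99.1 to 123) in those of the library labelled KO, beside 123 CPM in its adipocytes, and at 39.8 CPM (32.1 to 48.8) in those of the library labelled WT, beside 201 CPM. The interval of Cebpa labelled KO overlapped that of adipocytes (116 to 130), and the other values lay below the highest class of their library. Some reached a class of the lineage. Cebpb lay above both precursor classes labelled KO (120 and 83.2 CPM) and above the interstitial progenitors labelled WT (72.2 CPM). Ebf2 labelled WT overlapped its adipocytes at 27.7 CPM (20.8 to 36.0), and Cebpd labelled WT, at 89.1 CPM (77.4 to 102), lay above its adipocytes at 59.9 CPM (49.6 to 71.6).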
